A study of Mus musculus with 6 samples.

Results

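Car2 and Car3 encode carbonic anhydrases, and their genes lie next to each other on mouse chromosome 3. All probe sets annotated to exactly 1 of these symbols were taken, which gave 1 probe set for Car2 (1448752_at) and 2 for Car3, a brighter one (1449434_at) and a dimmer one (1460256_at). These are 3 of the 19551 probe sets in the table once array controls were set aside. The pair was selected on the mutant against control differences in signal of these same arrays, so the differences of Car2 and Car3 are given as a description and no test is drawn from them.

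The arrays measured total RNA of the anterior presomitic mesoderm (PSM), the tissue that segments into somites, dissected from mouse embryos at embryonic day 8.75 on a C57BL6/6J background. Controls were R26R AC/AC (3 pools) and mutants carried T-Cre besides (R26R AC/AC;T-Cre, 3 pools), with 3 PSMs in a pool, so both groups carried the AC allele at the ROSA26 locus and the T-Cre transgene set them apart. T-Cre expresses Cre recombinase under the promoter of the Brachyury gene, T, in the primitive streak and the mesoderm it forms. The labels do not spell out AC; general knowledge of this allele gives it as A-CREB, a dominant-negative protein that blocks DNA binding by CREB and its relatives and is switched on by Cre. No group had T-Cre without AC, so Cre and AC cannot be told apart as sources of a difference. The pools are labelled as biological replicates, and the 3 arrays per group limit the precision of every value.

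Carbonic anhydrases are zinc enzymes that interconvert carbon dioxide and water with bicarbonate and a proton, and so take part in pH control, gas transport and ion movement. Car2 is a fast cytosolic enzyme known from red cells, kidney and osteoclasts. Car3 is a cytosolic enzyme of much lower activity, known from slow skeletal muscle, fat and liver, and it has been described in the embryonic notochord.

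As a check of the labels, the signal of Gt(ROSA)26Sor, the transcript of the locus that carries AC, was 356 to 865 in the control pools and 62.9 to 98.1 in the mutant pools. The PSM factor Tbx6 read 501 to 607 in control and 275 to 412 in mutant pools, and Dll1 3089 to 3497 and 1590 to 2844. Both were thus read in every pool and were lower in the mutant pools. Of 14 PSM markers, 12 had a probe set. Their summed signal was 16249 to 17466 in control and 9505 to 15471 in mutant pools. Median signal per array lay between 491 and 535. The arrays also differed in the 3' to 5' signal ratio of the dap spike-in, a control transcript added before labelling. It was 19.6 to 23.8 in control 1, mutant 1 and mutant 2 and 10.2 to 12.2 in the other 3 arrays, so differences are also given within these high-ratio and low-ratio arrays, each of which holds 1 pool of 1 genotype and 2 of the other.

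Signal of both genes was higher in the mutant pools. Car2 read 1.65-fold higher, and Car3 1.99-fold higher by one probe set and 2.16-fold by the other. For each of the 3 probe sets, all mutant pools lay above all control pools. That was also so for 10.9% of all probe sets, and nothing is read from it here.

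Car2 had a signal of 1108, 1005 and 1254 in control pools 1 to 3 and of 1950, 2107 and 1520 in mutant pools 1 to 3. The control mean was 1122 ± 125 (SD, n = 3) and the mutant mean 1859 ± 304 (SD, n = 3). The groups did not overlap, and mutant 3 was the mutant pool nearest to the controls, 1.21-fold above the highest control. On the scale of log2(signal + 1), the difference of mutant minus control was 0.72 (SE 0.15).

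Car3, by its brighter probe set, read 467, 348 and 465 in control pools 1 to 3 and 925, 912 and 710 in mutant pools 1 to 3. The means were 427 ± 67.8 (SD, n = 3) in control and 849 ± 121 (SD, n = 3) in mutant, a log2 difference of 0.99 (SE 0.17). Mutant 3 was again the lowest mutant pool, and it stood 1.52-fold above the highest control.

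The dimmer Car3 probe set had a geometric mean signal of 108 over the 6 arrays, below the level of 349 under which probe sets were not tested. It read 60.4, 79.8 and 81.4 in control pools 1 to 3 and 150, 187 and 144 in mutant pools 1 to 3. The means were 73.9 ± 11.7 (SD, n = 3) and 160 ± 23.4 (SD, n = 3), and the log2 difference was 1.11 (SE 0.22). Its direction was that of the brighter one, and the lowest mutant pool was 1.77-fold above the highest control. With 64 in place of 1 added to the signal before the log, its difference was 0.70, since an added constant weighs most on a dim probe set.

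**Figure D1:**
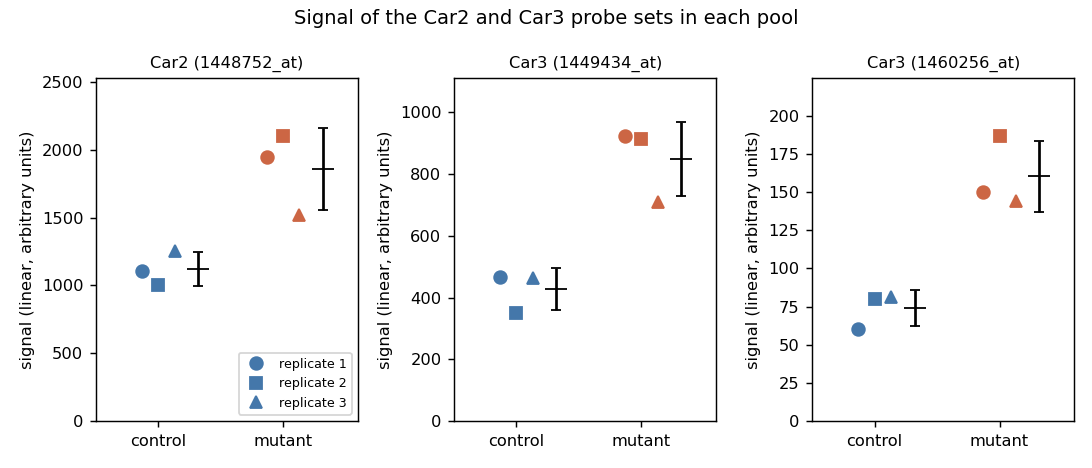
Signal (linear, arbitrary units, axes from 0) of the Car2 probe set and the 2 Car3 probe sets in each control (blue) and mutant (orange) pool, with symbols for the replicate number and black bars for the group mean ± SD (n = 3). In each panel the 3 mutant pools lie above the 3 control pools, and mutant 3 is the lowest mutant pool.

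When each array was left out in turn, the log2 difference ranged from 0.62 to 0.86 for Car2, from 0.85 to 1.12 for the brighter Car3 probe set and from 0.97 to 1.19 for the dimmer one.

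Within the high-ratio arrays, control 1 against mutant 1 and 2, Car2 differed by 0.87 on the log2 scale, and within the low-ratio arrays, control 2 and 3 against mutant 3, by 0.44. The same values were 0.98 and 0.82 for the brighter Car3 probe set and 1.46 and 0.83 for the dimmer one. All 6 of these differences were positive, as they had to be with all mutant pools above all control pools. Each was smaller in the low-ratio arrays, where the mutant side is mutant 3 alone. With the spike-in ratio as a block in the model, the differences were 0.65, 0.90 and 1.14.

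Pearson's r of Car2 with the brighter Car3 probe set over the 6 arrays was 0.977, and 0.872 after the mean of each genotype was taken off, and control 2 was the lowest control and mutant 3 the lowest mutant for both. With the dimmer Car3 probe set, Car2 had r = 0.923 over the 6 arrays and 0.479 with the genotype means taken off. The 2 probe sets of Car3 had r = 0.890 over the 6 arrays but −0.0086 with the genotype means taken off: control 2 was the lowest control pool by the brighter one, and control 1 was by the dimmer one. These 6 points share array, scaling and pool, and the values are given as descriptions.

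By the same measure, over 7114 genes with 1 tested probe set each, the genes most like Car2 were Acaa2, a thiolase of mitochondrial fatty acid breakdown (r = 0.997), Eef1akmt2 (0.997), Mdp1 (0.996), Med27 (0.993), a Mediator subunit, and Tcf19 (0.993). Acaa2 read 439 to 503 in control and 610 to 778 in mutant pools. The brighter Car3 probe set came behind 20 genes, and behind 158 with the genotype means taken off. The genes running most opposite to Car2 were Iws1 (−0.996), Rmdn3 (−0.995) and Rbm25 (−0.994). With 6 arrays and this many genes, high values of r arise for many genes.

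For the brighter Car3 probe set, the most similar genes were Pycard, the adaptor of inflammasomes (r = 0.999), Dync2h1 (0.996), a motor of cilia, Krt8 (0.995), a keratin of simple epithelia, Larp7 (0.994) and Tef (0.994). Pycard read 243 to 324 in control and 448 to 563 in mutant pools. The most opposite were Mon2 (−0.995), Yipf6 (−0.995) and Slc38a2 (−0.992), an amino acid transporter. For the dimmer one the leading genes were others, Eapp (0.998), Rbis (0.997), Nme1 (0.996), Thyn1 (0.995) and Tma16 (0.992), and the most opposite were Fnip1 (−0.997), Ythdc2 (−0.994) and Rnf103 (−0.993).

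With genotype means taken off, which leaves only the spread among pools of 1 genotype, Car2 ran closest to Med11 (r = 0.997), Ikbip (0.994), Cdkn1a (0.994), Eef1akmt2 (0.993) and Ppt1 (0.992). Cdkn1a, the cyclin-dependent kinase inhibitor p21 and a target of p53, read 343, 330 and 380 in control pools 1 to 3 and 2089, 2221 and 1751 in mutant pools 1 to 3, the same order of pools as Car2 within each genotype. By this measure Cdkn1a had r = 0.813 with the brighter Car3 probe set (442 genes above it) and 0.566 with the dimmer one (840 above it). With 6 arrays, high values of r arise for many genes here too, and a link to p53 was not tested. The closest to the brighter Car3 probe set were Pycard (0.997), Brd9 (0.996), Ntan1 (0.995), Dync2h1 (0.991) and Kdm6a (0.991), and to the dimmer one Mitd1 (0.999), Mrpl18 (0.996), Nin (0.996), Armc6 (0.994) and Zmat5 (0.990).

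Of the 14 other carbonic anhydrase genes on the list, 5 had a probe set, and Car1, Car5a, Car5b, Car6, Car7, Car9, Car10, Car11 and Car15 were not analysed here. Their 8 probe sets had a median log2 difference of 0.36, with 6 above 0, against a median of 0.03 and 55.1% above 0 over all probe sets. Limma's test ran over the 11731 probe sets above the filter on dim signal, and an adjusted p under 0.05 was counted as a call, which gave 0.247% called higher and 0.443% called lower. Of the 3 probe sets above the filter, for Car4 and Car14, limma called 0 in either direction and 1 had an unadjusted p under 0.05, as did 13.6% of all tested probe sets.

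Car4, which is tethered to the outer face of the cell membrane, read 1357, 1597 and 1929 in control pools 1 to 3 and 3080, 2039 and 2400 in mutant pools 1 to 3 by the brighter of its 2 probe sets. Its groups did not overlap, with a log2 difference of 0.62 (SE 0.18, limma adjusted p = 0.173). Its highest pool was mutant 1, whereas that of Car2 was mutant 2. The other Car4 probe set, of a kind that can cross-hybridise (_s_at), had 0.43 (SE 0.20, adjusted p = 0.40). With the spike-in ratio block, the former passed the threshold (0.67, limma adjusted p = 0.0222). Car14, a transmembrane enzyme, had −0.18 (SE 0.11, limma adjusted p = 0.490), at a mean signal of 2281 ± 149 (SD) in control and 2008 ± 84.4 in mutant (n = 3 each).

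The remaining family members were dim and were not tested. Car13, a cytosolic enzyme, had 3 probe sets with differences of 0.53 (SE 0.18), 0.29 (SE 0.19) and 0.27 (SE 0.26). The highest of them read 154 to 207 in control and 244 to 265 in mutant pools. Car8, a family member without carbonic anhydrase activity, had 0.50 (SE 0.21), with 142 to 181 in control and 192 to 291 in mutant pools. Car12, a transmembrane enzyme, had −0.09 (SE 0.22), and its groups overlapped.

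**Figure D2:**
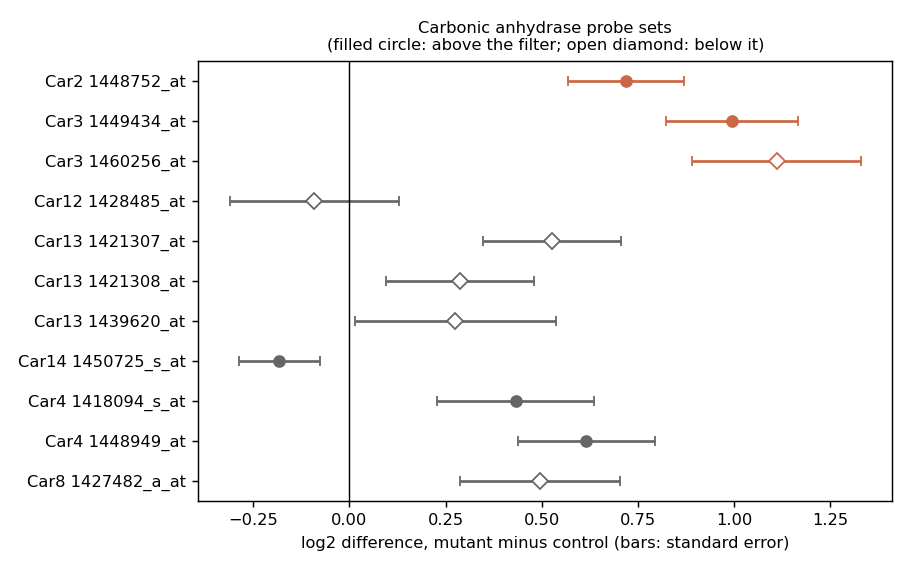
Log2 difference (mutant minus control, bars ± SE, 3 pools per genotype) of the 11 carbonic anhydrase probe sets, with Car2 and Car3 in orange and the others in grey; filled circles are above the filter on dim signal and open diamonds below it. The 3 Car2 and Car3 probe sets lie at 0.72, 0.99 and 1.11, those of Car4, Car8 and Car13 between 0.27 and 0.62, and those of Car12 and Car14 below 0.

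By gene order in RefSeq (GRCm38.p6), 0 genes lay between Car3 and Car2, and the order of carbonic anhydrase genes was Car13, Car1, Car3, Car2. The 4 nearest genes with a probe set on the Car3 side, going outwards, were Car13, Rbis, E2f5 and Lrrcc1. They did not share 1 direction. Rbis, a factor of ribosome biogenesis, had 0.31 (SE 0.08, limma adjusted p = 0.144) by its brighter probe set, with 8852, 9469 and 9390 in control pools 1 to 3 and 11210, 12123 and 11091 in mutant pools 1 to 3.

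E2f5, a cell cycle transcription factor, read lower in every mutant pool than in every control pool by both of its probe sets. The log2 differences were −0.50 (SE 0.11, limma adjusted p = 0.0754) and −0.47 (SE 0.13, adjusted p = 0.154). The first of them read 3853, 3733 and 3533 in control pools 1 to 3 and 2343, 2771 and 2741 in mutant pools 1 to 3. Lrrcc1, a centriole protein, had differences of −0.08 to 0.07 over 3 probe sets.

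On the Car2 side, the nearest measured gene, Ythdf3, a reader of N6-methyladenosine in RNA, was 13 places away in the gene table. Its 3 probe sets had −0.13 to −0.27, and limma called 0 of them (adjusted p = 0.338 to 0.718). Mir124-2hg, a microRNA host gene 26 places away, was dim, with 40.1 to 57.2 in control and 64.2 to 96.9 in mutant pools. Armc1 and Mtfr1 had differences of −0.13 to 0.00. Among the 8 measured genes around the pair, Car13 and Mir124-2hg had no probe set above the filter and could not be called. Limma called 0 of the others in either direction, where it called 0.317% of all tested genes higher and 0.538% lower. Of their tested probe sets, 4, 2 each of E2f5 and Ythdf3, had all mutant pools below all control pools, and 1 of Rbis had the reverse. Over all tested probe sets, 10.5% had all mutant pools below all control pools. Below the filter, Car13 by 1421307_at and 1421308_at and Mir124-2hg had all mutant pools above all control pools. That was so for 10.9% of all probe sets. The other dim probe sets of these genes overlapped between the genotypes.

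**Figure D3:**
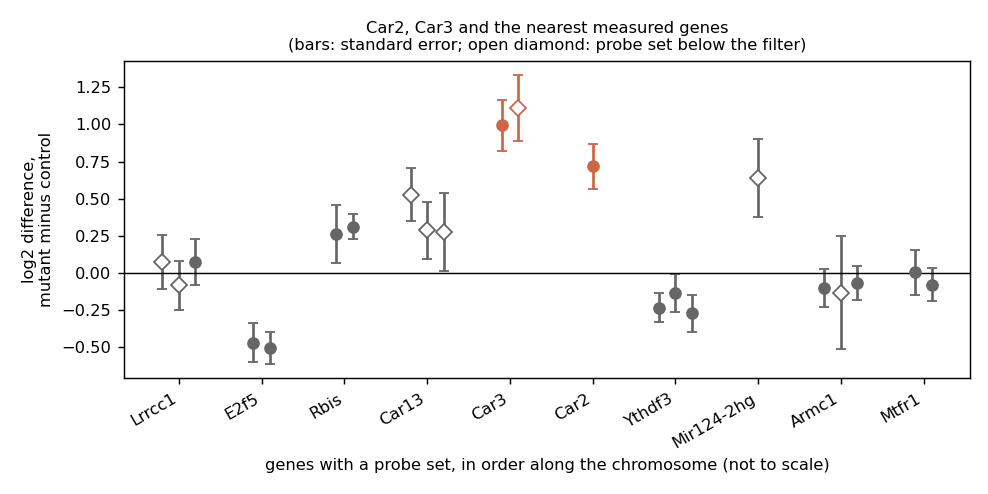
Log2 difference (mutant minus control, bars ± SE, 3 pools per genotype) of each probe set of Car3, Car2 (orange) and the 4 nearest measured genes on either side (grey), in their order along the chromosome and not to scale; open diamonds are below the filter on dim signal. Car13, Rbis and the dim Mir124-2hg lie above 0, E2f5 and Ythdf3 below 0, and Lrrcc1, Armc1 and Mtfr1 near 0.

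Of 30 genes for the transport of bicarbonate, protons and carbon dioxide, the partners of carbonic anhydrases at the membrane, 6 had a probe set and 2 were tested. Limma called 0 of them, where it called 0.317% of 7245 genes higher and 0.538% lower. An unadjusted p under 0.05 was found for 1 of them and for 14.4% of all tested genes. Slc4a1, the chloride and bicarbonate exchanger of red cells, read 315, 290 and 383 in control pools 1 to 3 and 969, 589 and 351 in mutant pools 1 to 3 (log2 difference 0.84, SE 0.31, limma adjusted p = 0.288). Mutant 3 lay within the range of the controls. Slc16a1, a monocarboxylate and proton carrier, had −0.02 (SE 0.12).

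Because Car2 is a red cell enzyme, red cell markers were set beside it. Of 24 such genes without Car2, 10 had a probe set, 9 of them with a difference above 0, and the median was 0.49. All mutant pools lay above all control pools for 4 of the 10, against 10.9% of all probe sets, and 1 had the reverse. Limma called 0 of the 5 tested. An unadjusted limma p under 0.05 was found for 4 (3 higher and 1 lower), against 14.4% of all tested genes in either direction. The 3 higher ones, Hbb-bh1, Hbb-y and Slc4a1, were read by probe sets with the suffix _x_at. Probes of such sets may also bind RNA of other genes, so the 3 may not be separate readings. How far that happened was not tested. The summed signal of the 10 was 31665, 39933 and 44103 in control pools 1 to 3 and 62264, 56945 and 43933 in mutant pools 1 to 3, so mutant 3 lay just under the highest control. In every pool, most of this sum came from the embryonic globins Hbb-bh1 and Hbb-y. In mutant 3, Car2 was 1.35 times and Car3 (brighter probe set) 1.66 times the control mean, and the red cell sum 1.14 times.

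The embryonic globin Hbb-bh1 had a log2 difference of 0.50 (SE 0.12, limma adjusted p = 0.108), with 13459, 13327 and 16127 in control pools 1 to 3 and 22534, 20992 and 17145 in mutant pools 1 to 3. Its r with Car2 was 0.972 over the 6 arrays, with 32 genes above it. That of Hbb-y was 0.841 (454 genes above it) and that of Slc4a1 0.854 (404 above it). With the brighter Car3 probe set, r was 0.940 for Hbb-bh1, 0.734 for Hbb-y and 0.830 for Slc4a1. The log2 difference of Hbb-y was 0.48 (SE 0.17, limma adjusted p = 0.256). Tal1, a transcription factor of early blood and vessel cells, had −0.74 (SE 0.23, limma adjusted p = 0.202). Within the high-ratio and low-ratio arrays the median of the red cell list was 0.71 and 0.05. The erythroid factors Gata1 and Klf1 were dim. Gata1 read 72.0 to 87.5 in control and 88.3 to 132 in mutant pools, and Klf1 75.2 to 118 in control and 137 to 191 in mutant pools. Of the 10 markers, 0 was at 0 in any pool. The part of red cells in the Car2 and Car3 differences was not tested, and in pooled tissue fewer or more cells of a type cannot be told apart from less or more RNA per cell.

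Markers of other cell types were set beside the pair in the same way. Of 16 surface ectoderm markers, 15 had a difference above 0 and 12 had no overlap between genotypes in that direction, against 10.9% of all probe sets. Their summed signal was 17467 to 20432 in control and 27001 to 27915 in mutant pools. Of the 10 tested, 9 had an unadjusted p under 0.05, against 14.4% of all tested genes in either direction. Limma called 1, against 0.317% of genes called higher. It was Epcam, an epithelial adhesion gene (0.60, SE 0.10, limma adjusted p = 0.0356). Of the fits without 1 array, Epcam was called in the one without control 1 and not in the others (adjusted p = 0.0597 to 0.170), and it was not called with the replicate block (0.0530), median centring (0.0612) or no intensity trend (0.0544). Krt19 had 1.12 (adjusted p = 0.0507), Perp 1.24 (adjusted p = 0.0674) and Krt8 0.44 (adjusted p = 0.0852) by limma. The sum was nearly level over the 3 mutant pools, at 1.42 to 1.47 times the control mean. Car2 ranged from 1.35 to 1.88 times and the brighter Car3 probe set from 1.66 to 2.17 times. Single markers did not all follow the sum. Krt19 read 2064, 1728 and 1098 in mutant pools 1 to 3, and Epcam 2797, 3191 and 3005. Over the 6 arrays, r with Car2 was 0.952 for Krt19 and 0.897 for Epcam, with 78 and 245 genes above them. Krt8 had r = 0.995 with the brighter Car3 probe set.

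Of 16 gut and visceral endoderm markers, 12 had a probe set. Limma called 0 of 10 tested, and 3 had an unadjusted p under 0.05, against 14.4% of all tested genes in either direction. Of these, Sox17 was lower (−1.06, SE 0.20, limma adjusted p = 0.0507), and it is also on the endothelial list. Cldn7 (0.50, SE 0.16, limma adjusted p = 0.209) and Rbp4 (1.18, SE 0.50, adjusted p = 0.347) were higher. The summed signal of the 12 markers was 11291 to 15891 in control and 14711 to 35445 in mutant pools. The highest sum was that of mutant 1, 2.63 times the control mean, and the other 2 mutant pools were at 1.09 and 1.10 times. The log2 differences without mutant 1 were 0.68 for Car2 and 0.93 and 1.15 for Car3. They could not fall below 0, since all mutant pools lay above all control pools.

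Endothelial markers ran the other way, with 13979 to 15166 in control and 7882 to 11382 in mutant pools. Of 14 measured, 7 had all mutant pools below all control pools, as had 1602 of all 19551 probe sets. Emcn, named after its values were seen, had the reverse (0.77, SE 0.19, below the filter). Of 10 tested, 7 had an unadjusted p under 0.05, against 14.4% of all tested genes in either direction. Limma called 1, against 0.538% of genes called lower. It was the VEGF receptor Kdr (−0.82, SE 0.14, limma adjusted p = 0.0314), which was called in the fit without control 1 and in none of the others without 1 array (adjusted p = 0.0525 to 0.163). Of 8 notochord and floor plate markers, a tissue in which Car3 has been described, 3 had a probe set, and limma called 0, with 0 at an unadjusted p under 0.05. All 3 had a difference above 0, at 0.37 (SE 0.22) for Foxa2, 0.27 (SE 0.20) for Foxa1 and 0.05 (SE 0.22) for Shh. Shh read 2133, 2832 and 2096 in control pools 1 to 3 and 2643, 1671 and 3166 in mutant pools 1 to 3. The summed signal of the 3 markers overlapped between the genotypes, at 3024 to 4164 in control and 2775 to 4747 in mutant.

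Of 13 skeletal muscle markers, 3 had a probe set, all of them below the filter, with a summed signal of 384 to 487 in control and 483 to 561 in mutant pools. Neural tube markers had 0 of 4 tested genes called by limma and 0 with an unadjusted p under 0.05, with sums of 9640 to 12080 and 10130 to 13473. Of the 8 measured, 7 had a difference above 0, against 55.1% of all probe sets. All mutant pools lay above all control pools for 3 of the 8, each below the filter, against 10.9% of all probe sets. Of the 9 tested PSM markers, 9 had a difference below 0, as had 8778 of all 19551 probe sets. An unadjusted p under 0.05 was found for 5 of the 9, against 14.4% of all tested genes in either direction. Limma called 1 of them, Ripply2 (−1.56, SE 0.14, limma adjusted p = 0.0015), against 0.538% of genes called lower. The PSM sum was 0.57, 0.65 and 0.92 times the control mean in mutant pools 1 to 3. No marker of these lists read 0 in any pool. The part of surface ectoderm, endoderm, endothelium, notochord, muscle, neural tube and PSM in the Car2 and Car3 differences was not tested.

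**Figure D4:**
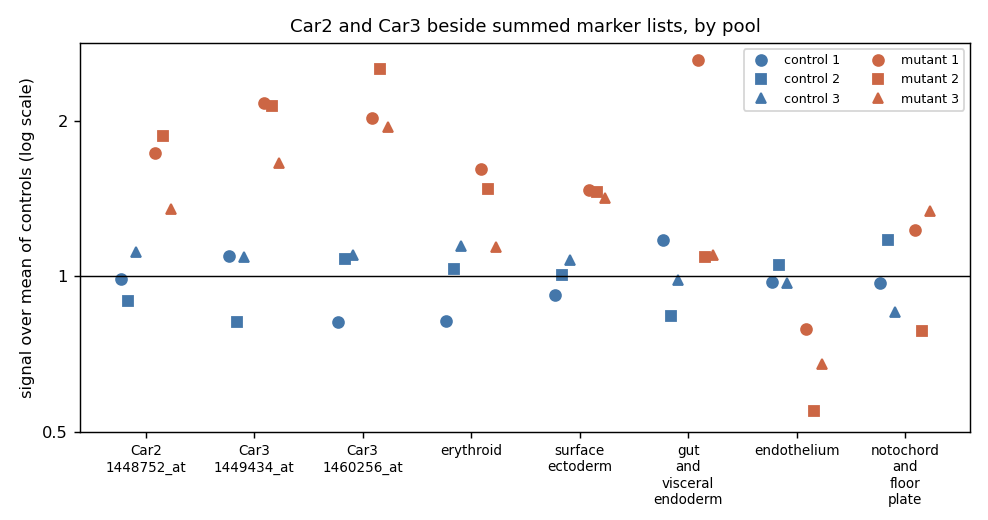
Signal of each pool divided by the mean of the 3 control pools (log scale) for the Car2 and Car3 probe sets and for the summed markers of 5 cell types, with controls in blue, mutants in orange and symbols for the replicate number. Mutant 3 is the lowest mutant pool for Car2, for both Car3 probe sets and for the red cell markers, the surface ectoderm sums lie together at 1.42 to 1.47, and mutant 1 stands alone at 2.63 for endoderm.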

How the data were processed

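The authors deposited summarised and scaled intensities on a linear scale, 1 for each array and probe set. Per the submitters' processing notes, MAS5 and Affymetrix Expression Console were used. Versions, scaling target, genome build and the choice of the 19606 listed probe sets are not given in the sources used here. Of these, 55 were array controls. Of the other 19551, 17348 had 1 gene symbol in the platform annotation, 494 several and 1709 none, and 17316 matched the RefSeq gene table of GRCm38.p6 by Entrez identifier.

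Log2(signal + 1) was compared between genotypes with limma (version 3.58.1, R 4.3.3; empirical Bayes with intensity trend, two-sided) over the 11731 probe sets at or above the 40th percentile of mean log2 signal, with Benjamini-Hochberg adjustment and a threshold of 0.05. SEs of dimmer probe sets come from a fit over all probe sets. A gene on a list was represented by its tested probe set of highest mean (for summed levels, its brightest probe set). The fit was tested on simulated data.

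The members, the gene lists and the alternatives were chosen with earlier results of these data known. Named genes were all carbonic anhydrases measured, up to 4 measured neighbours on each side, up to 4 tested genes per list with the smallest p, and the 5 most and 3 least similar genes per member (5 after genotype means were taken off). Rik, clone, Gm and LOC symbols were not named. Tbx6, Dll1, Gata1, Klf1 and Gt(ROSA)26Sor were named as checks. Equal replicate numbers had residual correlations of 0.195, −0.453 and 0.370, so the numbers were not taken to pair the pools. P-values measure the spread between these pools. Alternatives were other normalizations, offsets, filters, variance settings, array weights, blocks, and leaving out each array.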

Additional observations from a re-analysis of the deposited data

How the results depend on the processing

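The Car2 and Car3 differences kept their sign in all 15 alternatives each. Leaving out an array or splitting the arrays by spike-in ratio could not change the sign, since all mutant pools lay above all control pools. By more than 1 SD between replicates, Car2 moved to 0.44 within the low-ratio arrays, and the dimmer Car3 probe set moved to 0.70 with 64 added to the signal and to 1.46 (high-ratio arrays) and 0.83 (low-ratio arrays), where few arrays enter. The brighter one did not move by that much and ranged from 0.82 to 1.12.

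Counts of called probe sets, 29 higher and 52 lower, moved more. They were 88 and 155 at an adjusted p under 0.1, 526 and 670 with array quality weights, and 242 and 313 with the spike-in ratio block. With a filter at the 60th percentile they were 14 and 34. Without a filter 47 were higher, and with the replicate block 51 were. Without 1 array the counts ran from 11 to 58 higher and from 13 to 91 lower. With the replicate block, the lists of other carbonic anhydrases, transport genes and red cell markers had 0 calls, as without it.

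Of other carbonic anhydrases, 1 was called higher with the spike-in ratio block (Car4). Of transport genes, 1 was called higher with array quality weights (Slc4a1). Of red cell markers, 3 were called higher (Hbb-bh1, Hbb-y and Slc4a1) and 1 lower (Tal1) with those weights, 1 higher (Hbb-bh1) and 1 lower (Tal1) with the spike-in ratio block, and 0 to 1 higher without 1 array (Hbb-bh1, without mutant 3). The cause of these moves was not tested. The files used give no detection calls, so how far the dimmer Car3 probe set stood above background is unknown.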
